A study of Mus musculus with 6 samples.

Results

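The genes described are 10 enzymes of arginine and polyamine metabolism, out of 22962 genes measured by RNA sequencing in mouse alveolar macrophages. They were chosen by name and function, and each was found by its Ensembl identifier: Arg1, Arg2, Nos2, Ass1, Asl, Oat, Odc1, Srm, Sms and Sat1. The cells came from C57BL/6 mice that had received bleomycin (replicates 1, 2 and 5) or saline (replicates 1, 2 and 3) into the trachea. Bleomycin breaks DNA strands and is used to model pulmonary fibrosis. Cells were washed out of the air spaces after 2 weeks and left on plastic for 30 min, and those that stuck were lysed, so the preparation is macrophage-rich but unsorted. Ages, sexes and the number of mice per library are not stated. The p-values therefore speak only for the spread among these 6 libraries, some of which may be technical.

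Arginine is a branch point in macrophages. Inducible nitric oxide synthase turns it into nitric oxide and citrulline, and argininosuccinate synthase and lyase rebuild arginine from the citrulline. Arginases instead cut arginine into urea and ornithine, which ornithine aminotransferase sends towards proline, a major amino acid of collagen, and ornithine decarboxylase sends towards the polyamines putrescine, spermidine and spermine. Mouse macrophages are known to raise Arg1 on interleukin 4 and Nos2 on interferon gamma with bacterial products.

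Values are normalized read counts, that is, reads divided by 1 size factor per library. Recovered totals were 28916201 to 37147983 reads in bleomycin libraries and 27654799 to 29899133 in saline libraries. Tests are by limma on log2(value + 1) with p-values adjusted over 13512 genes, and a gene is said to have risen or fallen at an adjusted p under 0.05. The libraries carried macrophage transcripts: Cd68 was at 56877 to 66427 in bleomycin and 45026 to 49701 in saline libraries, and Siglecf, typical of resident alveolar macrophages, at 7228 to 8182 in bleomycin and 12651 to 16187 in saline libraries. Across the contrast 9.76% of tested genes rose and 3.9% fell. Values of the groups did not overlap in 30.8% of tested genes.

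Arg1 was the single enzyme of the 10 that rose, and 0 fell. Arg1 rose 69.1-fold, while the genes that take its product ornithine onwards, Oat and Odc1, differed by 1.12-fold (lower) and 1.09-fold (higher) and did not pass. Of 9 members tested 1 was called higher, against the background of 9.76%, and 0 lower, against 3.9%. At an unadjusted p under 0.05 there were 2, Arg1 and Ass1, both higher, and edgeR and DESeq2 each called 1 higher and 0 lower. Groups did not overlap in 2 of the 9, Arg1 and Srm, against 30.8% of all genes. The median log2 fold change was 0.12 over the 9 members and -0.01 over all genes tested. Arg1 passed the filter on low values only through its bleomycin libraries, while the other 8 passed on saline values alone. Nos2 was too low to test.

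**Figure D1:**
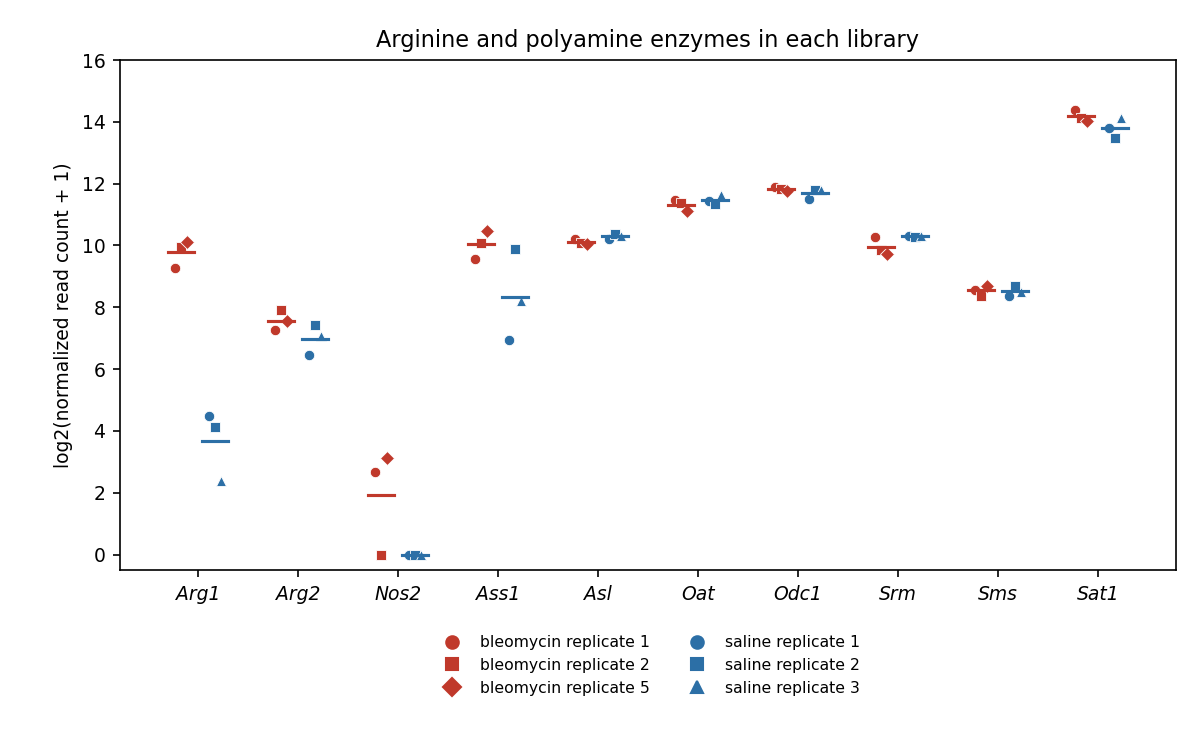
Level of each enzyme in each library, as log2(normalized read count + 1), with bleomycin libraries in red left of saline libraries in blue, a marker shape for each replicate number and a bar at the group mean. Arg1 in the 3 bleomycin libraries sits far above the 3 saline libraries, Ass1 varies most within saline, and the remaining measurable enzymes lie close together.

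Arg1 (ENSMUSG00000019987, chromosome 10, 24915221 to 24927484, minus strand, GRCm38) encodes the cytosolic arginase of liver and of activated mouse macrophages. It had 623, 983 and 1098 normalized counts in bleomycin replicates 1, 2 and 5, against 21.6, 16.3 and 4.24 in saline replicates 1, 2 and 3. Every bleomycin library was above every saline library, and the lowest bleomycin value belonged to replicate 1. The log2 fold change was 6.11 ± 0.51 (SE; 95% interval 4.94 to 7.28; limma adjusted p = 0.000246), rank 27 by size among the genes tested. Saline values rest on 22, 15 and 4 reads, so the size of the fold is less certain than its direction. Leaving out any 1 library gave log2 fold changes of 5.47 to 6.53.

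Arg2 (ENSMUSG00000021125, chromosome 12, 79130777 to 79156301, plus strand), the mitochondrial arginase, had 153, 237 and 187 normalized counts in bleomycin libraries, against 86.3, 172 and 134 in saline libraries. The groups overlapped, since saline replicate 2 exceeded bleomycin replicate 1. The log2 fold change was 0.59 ± 0.29 (95% interval -0.07 to 1.25; limma adjusted p = 0.249), so Arg2 did not pass. Exons of Arg2 overlap those of Vti1b and of an antisense gene on the opposite strand, and the strand setting of the counting is not given, so part of its reads may belong to them.

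The 2 arginase transcripts share little exact sequence. The longest run of bases found in both was 12, inside the coding sequence of each, at chr10:24916801-24916812 (minus strand) for Arg1 and chr12:79150789-79150800 (plus strand) for Arg2. It is shown because the comparison of the 2 genes rests on their reads being separable. It is read 5′ to 3′ on the coding strand from GENCODE transcripts on GRCm38.
Run shared by Arg1 and Arg2: gtgtacattggc

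Per kilobase of exon, Arg1 and Arg2 together gave 387, 608 and 624 in bleomycin libraries, against 70.1, 128 and 95.5 in saline libraries. Arg1 supplied 72.3%, 72.6% and 79.0% of that sum in bleomycin replicates 1, 2 and 5, against 13.8%, 5.74% and 1.99% in saline replicates 1, 2 and 3. The arginase message was thus mostly Arg2 in saline libraries and mostly Arg1 in bleomycin libraries. With lengths of the longest coding transcript in place of all merged exons the shares were 79.8% to 85.0% in bleomycin and 2.98% to 19.5% in saline libraries. The log2 difference between 2 enzymes was also compared between groups; gene length drops out of that comparison but not of the difference itself. Arg1 minus Arg2 on the log2(value + 1) scale averaged 2.21 ± 0.30 in bleomycin and -3.32 ± 1.37 in saline libraries (SD, n = 3 each; two-sided exact permutation p = 0.1, adjusted p = 0.3 over the 6 enzyme pairs compared). With 3 libraries against 3, 0.1 is the smallest p this test can give.

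Markers of other macrophage states and of other cells also differed between the groups. The summed monocyte and monocyte-derived markers, 6 of 6 tested higher, were 115995, 189650.0 and 210212 in bleomycin replicates 1, 2 and 5 and 2366 to 2842 in saline libraries. Most of that sum was Apoe, at 112162, 183748 and 203688 in bleomycin replicates 1, 2 and 5 and 2063 to 2479 in saline libraries. Bleomycin replicate 1 was the lowest of its group in each of these markers, as it was in Arg1. The order in saline libraries matched less well. In saline replicate 3, where Arg1 was lowest, Apoe was highest, while F13a1 and Cx3cr1 were lowest. The summed resident markers, 5 of 8 lower and 0 higher, were 225851 to 332358 in bleomycin and 462378 to 583610.0 in saline libraries, and replicate 1 was the highest bleomycin library. Most of the resident sum was Chil3, at 179106 to 264167 in bleomycin and 311298 to 476558 in saline libraries. T cell markers, 6 of 6 higher, summed to 122 to 439 in bleomycin and 13.7 to 21.2 in saline libraries. B cell markers summed to 34.1 to 459 in bleomycin and 6.36 to 8.83 in saline libraries (1 of 1 tested higher), with Pax5 at 0 in every saline library. Dendritic cell markers, 4 of 5 higher, summed to 646 to 1570 in bleomycin and 148 to 212 in saline libraries. The T cell markers, Cd79a, Ly6c2, F13a1, Cx3cr1, Flt3 and Cd209a passed the filter on low values only with bleomycin libraries. A lower call was therefore hardly possible for them. The part of all these markers in the Arg1 difference was not tested. In bulk RNA a change in the number of cells of a type and a change of RNA per cell cannot be told apart.

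Papss2, F13a1 and Pde7b were among the 5 genes whose profile over the 6 libraries was most like that of Arg1, out of 10306 genes whose larger group mean was 100 or more. Likeness was the root mean square difference of mean-centred log2(value + 1), which was 0.14 for Papss2, an enzyme that makes the sulfate donor used on proteoglycans. Papss2 had 310, 441 and 567 normalized counts in bleomycin libraries, against 11.8, 8.69 and 2.12 in saline libraries. F13a1, a coagulation factor subunit and a monocyte marker, differed by 0.50, with 460, 736 and 885 in bleomycin libraries, against 13.7, 6.52 and 6.36 in saline libraries. Pde7b, a cyclic AMP phosphodiesterase, differed by 0.53, with 56.6, 169 and 208 in bleomycin libraries, against 1.96, 4.35 and 0 in saline libraries.

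Nos2 (ENSMUSG00000020826, chromosome 11, 78920787 to 78960254), the inducible nitric oxide synthase that competes with arginase for substrate, was barely detected in any library. It had 6, 0 and 9 reads in bleomycin replicates 1, 2 and 5, against 0 reads in each of the 3 saline libraries. As normalized counts these are 5.39, 0 and 7.76 in bleomycin libraries, while 0 reads allow values up to 2.94, 3.26 and 3.18 in saline replicates 1, 2 and 3 (3 reads per library, counting error only). Over the group, the bleomycin mean of 4.38 was 4.20 times a floor of 3 reads over the whole saline group (a mean of 1.04). That ratio is not a lower limit on the fold, since the bleomycin mean itself rests on 15 reads and bleomycin replicate 2 also had 0. Nos1 and Nos3, the neuronal and endothelial synthases, were at 0 to 3.30 in every library. Of the 6 enzyme pairs, Arg1 minus Nos2 is not read, because Nos2 was at 0 reads in 4 of the 6 libraries and the difference there is the Arg1 level alone. With no filter on low values Nos2 did not pass either (log2 fold change 1.94 ± 0.79, limma adjusted p = 0.197). Per kilobase Nos2 averaged 0.993 ± 0.901 in bleomycin libraries, against 405 ± 111 for Arg1.

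The citrulline recycling enzymes did not pass the test, and Ass1 had the largest standard error of the 9 members tested. Ass1 (ENSMUSG00000076441, chromosome 2, 31470207 to 31520672), which joins citrulline to aspartate and limits the rate of recycling, had 754, 1083 and 1407 normalized counts in bleomycin libraries, against 121, 935 and 296 in saline replicates 1, 2 and 3. Saline replicate 2 lay above bleomycin replicate 1, so the groups overlapped. The log2 fold change was 1.70 ± 0.62 (95% interval 0.28 to 3.12; limma adjusted p = 0.123). Without saline replicate 2 it was 2.46 (limma adjusted p = 0.00889). Without saline replicate 1 it moved the other way, to 0.99 (limma adjusted p = 0.2399). Leaving out any other library gave 1.48 to 1.93 and no call (limma adjusted p = 0.1201 to 0.3394). Saline replicate 2 was the highest of its group in Ass1. It also had the highest neutrophil marker sum of its group, at 2862 against 1464 and 1564 in saline replicates 1 and 3. Of the 5 neutrophil markers with values, 4 were highest in saline replicate 2 (S100a9 at 503 against 4.90 and 7.42) and Cxcr2 was lowest there (179 against 264 and 334). Its resident marker sum was the lowest of the saline libraries, with Marco, Car4, Krt79 and Fabp4 highest there and Siglecf, Pparg, Ear1 and Chil3 lowest. The part of these markers in the Ass1 spread was not tested.

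Asl (ENSMUSG00000025533, chromosome 5, 130011258 to 130029247), which splits argininosuccinate into arginine and fumarate, did not pass. It had 1191, 1091 and 1052 normalized counts in bleomycin libraries, against 1178, 1317 and 1272 in saline libraries (log2 fold change -0.18 ± 0.12, 95% interval -0.44 to 0.09, limma adjusted p = 0.404). The difference between the 2 recycling enzymes did not pass either: Ass1 minus Asl averaged -0.08 ± 0.54 in bleomycin and -1.96 ± 1.40 in saline libraries (exact permutation p = 0.2, adjusted p = 0.3).

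Neither enzyme that draws on ornithine passed. Oat (ENSMUSG00000030934, chromosome 7, 132557478 to 132576398), which starts the route from ornithine to proline, had 2806, 2650.2 and 2198 normalized counts in bleomycin libraries, against 2775, 2578 and 3183 in saline libraries. Its groups overlapped, and the log2 fold change was -0.16 ± 0.13 (95% interval -0.47 to 0.15, limma adjusted p = 0.533). Odc1 (ENSMUSG00000011179, chromosome 12, 17544794 to 17551505), whose product putrescine opens polyamine synthesis, had 3827, 3601 and 3444 in bleomycin libraries, against 2924, 3583 and 3542 in saline libraries. Here too the groups overlapped (log2 fold change 0.12 ± 0.12, 95% interval -0.15 to 0.39, limma adjusted p = 0.611). Odc1 minus Oat averaged 0.51 ± 0.12 in bleomycin and 0.23 ± 0.21 in saline libraries (exact permutation p = 0.3, adjusted p = 0.36).

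Of the enzymes that build the longer polyamines, Srm was lower in each bleomycin library but did not pass. Srm (ENSMUSG00000006442, chromosome 4, 148591503 to 148594993), spermidine synthase, had 1239.6, 927 and 839 normalized counts in bleomycin replicates 1, 2 and 5, against 1275, 1248 and 1263 in saline libraries. Saline values were tight (1262 ± 13.2, SD, n = 3), and bleomycin replicate 1 lay just under them. The log2 fold change was -0.35 ± 0.16 (95% interval -0.71 to 0.004, limma adjusted p = 0.199). It was -0.52 without bleomycin replicate 1 (limma adjusted p = 0.0264). Leaving out any other library gave -0.235 to -0.361 and no call (limma adjusted p = 0.299 to 0.573). Sms (ENSMUSG00000071708, X chromosome, 157443855 to 157492287), spermine synthase, had 380.0, 331 and 410.3 in bleomycin libraries, against 329, 413 and 358 in saline libraries, with full overlap (log2 fold change 0.03 ± 0.16, 95% interval -0.34 to 0.39, limma adjusted p = 0.945). Its sign turned to -0.042 under quantile normalization. A processed pseudogene on the X chromosome, Sms-ps, is identical to Sms over its whole 1101 bases. Sms-ps had 14.4, 11.0 and 17.2 normalized counts in bleomycin libraries, against 16.7, 32.6 and 11.7 in saline libraries. How reads that match both were counted is not given, so the level of Sms is uncertain. Srm minus Sms averaged 1.41 ± 0.34 in bleomycin and 1.79 ± 0.18 in saline libraries (exact permutation p = 0.2, adjusted p = 0.3).

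Sat1 (ENSMUSG00000025283, X chromosome, 155213132 to 155216449), the acetyltransferase that marks spermidine and spermine for breakdown or export, was the highest of the 10 per kilobase. It had 21140.4, 17827 and 16872 normalized counts in bleomycin libraries, against 14232, 11494 and 17804 in saline libraries. Saline replicate 3 lay inside the bleomycin range. The log2 fold change was 0.38 ± 0.17 (95% interval -0.02 to 0.77, limma adjusted p = 0.214), so it did not pass. Odc1 minus Sat1 averaged -2.36 ± 0.10 in bleomycin and -2.10 ± 0.36 in saline libraries (exact permutation p = 0.4, adjusted p = 0.4).

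Ordered by level per kilobase of exon, Sat1 led in both groups, at 6710 ± 808 in bleomycin and 5231 ± 1141 in saline libraries (SD, n = 3 each). Oat (1081 ± 134 in bleomycin, 1206 ± 131 in saline), Odc1 (1064 ± 56.6 in bleomycin, 984 ± 108 in saline) and Srm (627 ± 132 in bleomycin, 789 ± 8.27 in saline) followed in both groups. Arg1 was sixth in bleomycin libraries at 405 ± 111, beside Ass1 at 448 ± 135, and ninth in saline libraries at 6.30 ± 3.99, above Nos2 alone. The lower ranks were held by Asl (230 ± 14.9 in bleomycin, 260 ± 14.7 in saline), Arg2 (135 ± 29.8 in bleomycin, 91.4 ± 30.0 in saline) and Sms (62.2 ± 6.68 in bleomycin, 61.1 ± 7.04 in saline), while Ass1 was at 187 ± 178 in saline libraries. Neighbours whose values overlapped were Oat with Odc1, Srm with Ass1 and Ass1 with Arg1 in bleomycin libraries, and Asl with Ass1, Ass1 with Arg2 and Arg2 with Sms in saline libraries. With the longest coding transcript as the length, Odc1 stood above Oat in both groups and Sms above Arg2 in saline libraries.

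Beyond the 10 enzymes, 57 genes in 8 lists of the same pathways were counted. Of the 42 that could be tested 4 rose and 2 fell, close in share to the 9.76% and 3.9% of all genes, and their median log2 fold change was 0.01. Agxt2, Otc and Prodh2 were not analysed here. The lists with calls were polyamine oxidation, acetylation and transport (2 of 6 tested higher), antizymes and their inhibitor (1 of 3 higher), urea cycle start with creatine and agmatine synthesis (1 of 2 higher), arginine transport (1 of 6 lower) and proline synthesis and breakdown (1 of 5 lower). By limma 0 genes were called among 8 of nitric oxide synthase cofactors and partners, 8 of aminopropyl donor supply and methionine salvage, and 4 of hypusine formation. These 3 lists held 1, 1 and 0 genes at an unadjusted p under 0.05, edgeR called 0 in each, and DESeq2 called 1, Adi1, as higher. In those lists the smallest p belonged to Nostrin, which traffics the endothelial synthase (log2 -0.41 ± 0.17, limma adjusted p = 0.171), Adi1 of methionine salvage (log2 0.46 ± 0.14, adjusted p = 0.0667) and Eif5a, the translation factor that carries hypusine (log2 -0.26 ± 0.16, adjusted p = 0.397).

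**Figure D2:**
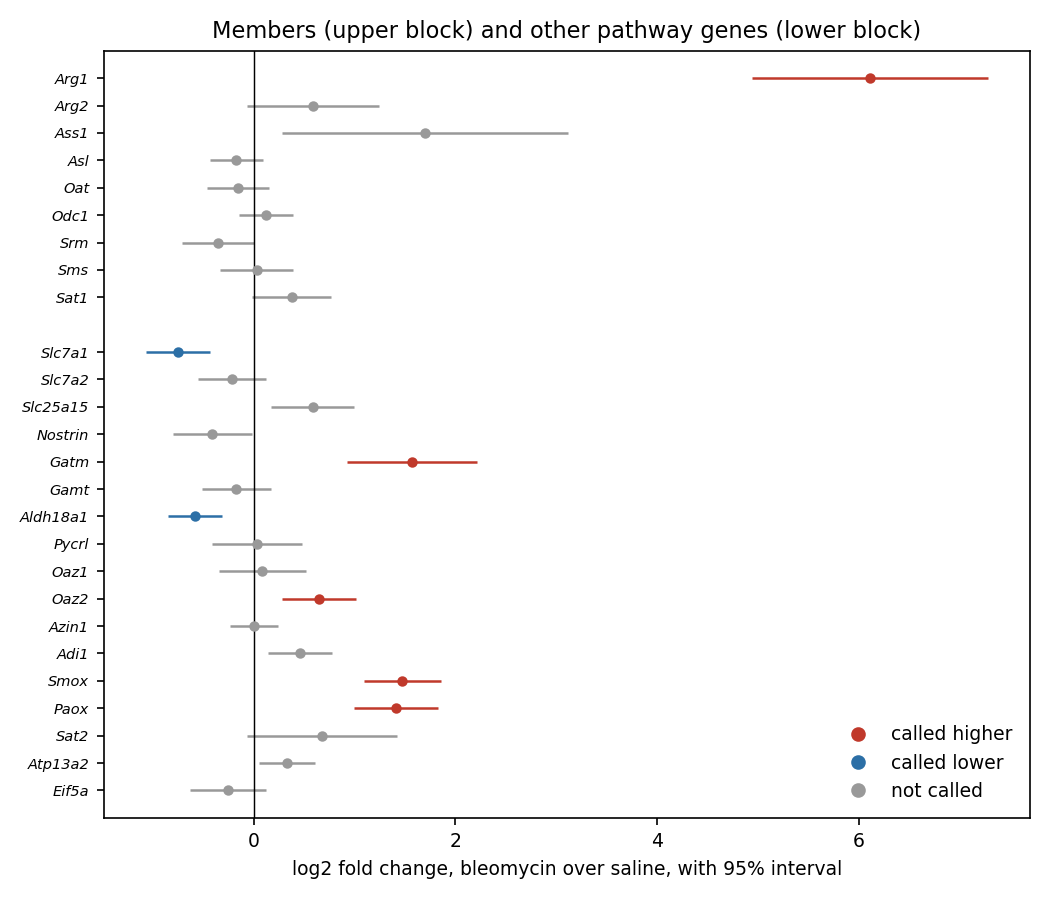
Log2 fold change, bleomycin over saline, of the 9 tested members (upper block) and 17 other tested pathway genes described in the text (lower block), with 95% intervals from limma. Red marks genes called higher, blue genes called lower and grey the rest. Arg1 at 6.11 stands apart from all others shown.

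Both polyamine oxidases rose. Smox (ENSMUSG00000027333, chromosome 2), which oxidises spermine directly to spermidine and releases hydrogen peroxide, had 1524, 1747 and 1826 normalized counts in bleomycin libraries, against 622, 491 and 743 in saline libraries. The groups were far apart (log2 fold change 1.47 ± 0.17, 2.77-fold, limma adjusted p = 0.000933). Paox (ENSMUSG00000025464, chromosome 7), the peroxisomal oxidase that takes the acetylated polyamines made by Sat1, had 322, 298 and 265 in bleomycin libraries, against 115, 96.7 and 121 in saline libraries. It was 2.65-fold higher (log2 1.41 ± 0.18, limma adjusted p = 0.00161), again with no overlap. Paox exons overlap those of Echs1 on the opposite strand, so part of its reads may belong to Echs1. Sat2, a relative of Sat1, did not pass (log2 0.68 ± 0.33, limma adjusted p = 0.237), nor did the lysosomal polyamine exporter Atp13a2 (log2 0.33 ± 0.12, adjusted p = 0.129). Both oxidases were called under all 17 alternatives run, with log2 fold changes of 1.32 to 1.61 for Smox and 1.23 to 1.55 for Paox.

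Among the antizymes, which bind ornithine decarboxylase and send it to the proteasome, Oaz2 rose and Oaz1 did not pass. Oaz2 (ENSMUSG00000040652, chromosome 9) had 452, 508 and 464 normalized counts in bleomycin libraries, against 346, 255 and 312 in saline libraries (log2 0.65 ± 0.16, limma adjusted p = 0.0315). The groups did not overlap, but the call was lost without bleomycin replicate 2 or 5 or saline replicate 2 or 3 (adjusted p = 0.0718 to 0.169). Oaz1 (ENSMUSG00000035242, chromosome 10) had 8395, 5752 and 5817 in bleomycin libraries, against 5372, 5720.3 and 7699 in saline libraries (log2 0.08 ± 0.19, adjusted p = 0.843). Azin1, an inhibitor that frees ornithine decarboxylase from antizyme, did not pass (log2 -0.0025 ± 0.10, limma adjusted p = 0.993).

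Antizyme protein is made only when the ribosome skips a base at an early stop codon, an event that polyamines promote, so message levels of Odc1 and of the antizymes do not show the enzyme's activity. The 2 sites are printed because they are what makes these genes polyamine sensors. Both are from GENCODE transcripts on GRCm38, plus strand, 5′ to 3′, with capitals marking the last codon before the stop and the TGA stop itself; the skipped base is the first T of TGA. Oaz1 lies at chr10:80828268-80828321 and Oaz2 at chr9:65686245-65686298, and 44 of the 54 bases are the same in both.
Oaz1: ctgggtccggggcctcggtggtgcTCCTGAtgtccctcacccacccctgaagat
Oaz2: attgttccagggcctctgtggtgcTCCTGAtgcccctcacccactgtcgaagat

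Arginine supply and proline synthesis each held 1 gene that fell. Slc7a1 (ENSMUSG00000041313, chromosome 5), the cationic amino acid transporter CAT1, had 652, 612 and 663 normalized counts in bleomycin libraries, against 1134, 1214 and 927 in saline libraries. It was 1.69-fold lower with no overlap (log2 -0.76 ± 0.14, limma adjusted p = 0.00803), and missed the threshold without bleomycin replicate 2 (adjusted p = 0.0564). Its relative Slc7a2, known for arginine uptake in activated mouse macrophages, was at 11550.0 to 12141 in bleomycin and 11165 to 16371 in saline libraries and did not pass (log2 -0.22 ± 0.15, adjusted p = 0.421). Slc25a15, which carries ornithine into mitochondria, had log2 0.58 ± 0.18 (limma adjusted p = 0.0684) and was called by DESeq2 alone. Aldh18a1 (ENSMUSG00000025007, chromosome 19), the enzyme that makes the proline precursor from glutamate, had 1033, 977 and 1036 in bleomycin libraries, against 1529, 1662 and 1395 in saline libraries. Aldh18a1 was lower with no overlap (log2 fold change -0.59 ± 0.12, limma adjusted p = 0.0115), and the call was lost without bleomycin replicate 2 (adjusted p = 0.0850) or 5 (adjusted p = 0.0655). Pycrl, which completes proline, did not pass (log2 0.03 ± 0.20, limma adjusted p = 0.950).

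A further arginine consumer rose. Gatm (ENSMUSG00000027199, chromosome 2), which transfers the amidino group of arginine to glycine and releases ornithine in the first step of creatine synthesis, had 272, 445 and 523 normalized counts in bleomycin libraries, against 175, 106 and 129 in saline libraries. It was 2.96-fold higher with no overlap (log2 1.57 ± 0.28, limma adjusted p = 0.00747), and bleomycin replicate 1 was the lowest of its group, as for Arg1. Gamt, which finishes creatine, did not pass (log2 -0.17 ± 0.15, adjusted p = 0.545). Fibroblast markers summed to 849, 219 and 669 in bleomycin replicates 1, 2 and 5 and 35.3 to 321 in saline libraries (2 of 5 tested higher). Col1a2, Col3a1, Dcn and Pdgfra passed the filter on low values only with bleomycin libraries. The part of the fibroblast markers in the Gatm difference was not tested. Neutrophil markers summed to 2925 to 3213 in bleomycin and 1464 to 2862 in saline libraries (2 of 4 tested higher). Eosinophil markers summed to at most 2.59 in bleomycin and 5.88 in saline libraries, but only 2 of the 4 listed had values and 0 were tested.

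**Figure D3:**
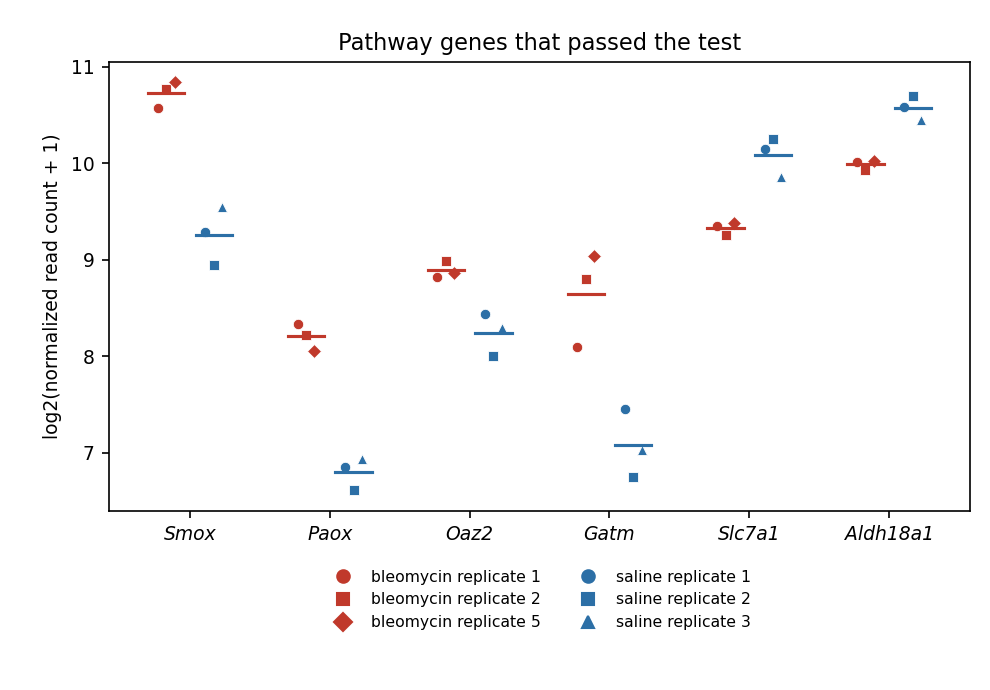
Level of the 6 other pathway genes that passed the test, as log2(normalized read count + 1) in each library, with bleomycin in red left of saline in blue and a bar at the group mean. Smox, Paox, Oaz2 and Gatm are higher and Slc7a1 and Aldh18a1 lower in all 3 bleomycin libraries than in any saline library.

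Epithelial markers moved both ways (3 of 6 higher, 1 lower; sums of 1936 to 2446 in bleomycin and 4243 to 5002 in saline libraries), with Epcam as the largest part of the sum. Of these, Sftpb and Sftpa1 passed the filter on low values only with bleomycin libraries. Markers of red blood cells were low, at 8.62 to 126 in bleomycin and 9.78 to 12.7 in saline libraries. Cycling cell markers, which bear on polyamine demand, summed to 7124 to 8026 in bleomycin and 8409 to 9337 in saline libraries, with 2 of 6 lower and 0 higher. The pan-macrophage markers summed to 1421140.0 to 1685390.0 in bleomycin and 799117 to 925587 in saline libraries, most of it Lyz2. The part of these markers in the values above was not tested.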

How the data were processed

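Total RNA of plated lavage cells was sequenced in 6 libraries, 3 per group. The submitters' processing notes name DESeq2, HTSeq 0.6.0, STAR 2.5.2b, bcl2fastq 2.18.0.12 and the build mm10, without roles, annotation, strand setting or filters. What the authors deposited is a normalized signal. In it 100% of values above 0 were whole multiples of 1 read (within 0.05 of a read) in each library, so they are read counts divided by a size factor. Symbols were found for 22873 of 22962 identifiers, and positions and exon lengths come from GENCODE M21 on GRCm38, the assembly behind mm10.

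The 13512 genes that reached a value of 10 in 3 or more libraries entered the test. It was limma 3.58.1 (R 4.3.3), two-sided, on log2(value + 1), with an intensity trend, no covariate and Benjamini-Hochberg adjustment. This scale understates changes of low genes. Enzyme pairs were compared by an exact permutation test over libraries. Other settings tried were no filter, a minimum of 50, pseudocounts of 0.5 and 5, TMM, quantile normalization, no trend, robust variances, edgeR 4.0.16 and DESeq2 1.42.0 on recovered reads, a replicate block and leaving out each library. Over recovered reads edgeR called 1303 genes higher and 518 lower, and DESeq2 1544 and 769. The fits were first run on simulated counts that gave every gene the same dispersion, that is, the same setting for spread between libraries. That run therefore does not cover genes as uneven between libraries as Ass1.

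The members, gene lists and markers were chosen with earlier results of these data known. Named were all members, each called gene of the pathway lists or else the gene with the smallest p, and the 5 genes most like Arg1, apart from some that are not reported here. Nos1, Nos3, Sat2, Atp13a2, Oaz1, Azin1, Slc7a2, Slc25a15, Pycrl, Gamt, Azin2, Nags, Slc25a29, Pycr1, Cps1, Pax5, Epcam, S100a9 and Cxcr2 were named after their values were seen. The alternatives for single pathway genes and the second gene length were also added then, as were the names of markers given for their share of a sum or for the filter. Floors on reads cover counting error only, while the intervals come from limma and rest on the spread among libraries.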

Additional observations from a re-analysis of the deposited data

How the results depend on the processing

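Arg1 was called higher and kept its direction under all 17 alternatives, with log2 fold changes of 5.31 to 6.53 and adjusted p from 8.9e-53 to 0.00268, as were Smox, Paox and Gatm (largest adjusted p = 0.00695, 0.0149 and 0.0444). Leaving out each library in turn gave 502 to 1173 genes higher and 162 to 576 lower, 1 to 2 members higher and 0 to 1 lower, and 3 to 4 other pathway genes higher and 0 to 3 lower. The counts over all genes fell most without bleomycin replicate 2 (522 and 166) or 5 (502 and 162), and the count lower fell to 350, 327 and 320 without saline replicates 1, 2 and 3; fewer libraries were then fitted. Quantile normalization gave 1114 higher and 752 lower, against 1319 and 527 as deposited, and moved the median of all genes from -0.01 to -0.10 on the log2 scale. A block by replicate number gives bleomycin replicate 5 and saline replicate 3 a level of their own. Only replicates 1 and 2 of each group then inform the contrast, so that fit is not an adjustment over all 6 libraries. In it 194 genes were lower and 2 members were higher (Arg1, and Ass1 at log2 1.42 with limma adjusted p = 0.0104). There 1 other pathway gene was lower, since Aldh18a1 missed (adjusted p = 0.186), as did Oaz2 (0.276). The numbers 1 and 2 occur in both groups but nothing in the labels pairs them, and deviations of same-numbered libraries correlated at -0.20 and 0.02. Signs turned for Oat with the block (log2 0.028), and for Sms with the block (-0.057), with quantile normalization (-0.042) and on leaving out libraries (-0.0475 to 0.11), all within their error. Oaz2 was not called in 5 of 17 alternatives, Aldh18a1 in 3 and Slc7a1 in 1. These were fits with a library left out, or the block, which also takes bleomycin replicate 5 and saline replicate 3 out of the contrast. The cause was not tested otherwise. At 41 saline reads for Arg1 and 0 for Nos2, depth limits their folds.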

Other observations

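Several low pathway genes lay under the filter and were tested only in the fit with no filter, where 5 pathway genes were called higher, Azin2 being the added one. Azin2, an antizyme inhibitor counted here in the list with agmatine, had 5.39, 15.4 and 15.5 normalized counts in bleomycin replicates 1, 2 and 5. Saline libraries had 0.98, 0 and 0, which is 1 read in all (limma adjusted p = 0.00933 with no filter). Slc25a29, a mitochondrial carrier of basic amino acids, had 9.88, 13.2 and 17.2 in bleomycin libraries, against 4.90, 3.26 and 2.12 in saline libraries (adjusted p = 0.0870 with no filter, by limma). Nags, which makes the activator of the first urea cycle enzyme, had 5.39, 23.1 and 16.4 in bleomycin libraries, against 8.83, 2.17 and 2.12 in saline libraries. Its groups overlapped and it did not pass (limma adjusted p = 0.234 with no filter). Pycr1, the mitochondrial enzyme that completes proline and is abundant in fibroblasts, had 3.59, 2.20 and 4.31 in bleomycin libraries, against 3.92, 11.95 and 15.9 in saline libraries. Here too the groups overlapped and the gene did not pass (limma adjusted p = 0.311 with no filter). Cps1, the urea cycle enzyme of liver, was at 1.72 or less in every library.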
